A study of Mus musculus with 6 samples.

Results

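MHC class I molecules display peptides from inside the cell to CD8 T cells, and the transcripts of their chains, of the peptide loading machinery and of the immunoproteasome were followed in mouse aortic arches. The set was chosen by name and has 10 genes: H2-K1, H2-D1, B2m, Tap1, Tap2, Tapbp, Psmb8, Psmb9, Psmb10 and Nlrc5. Of these, 9 were measured among the 14298 genes of the table, all 9 passed the filter on low values, and Psmb9 was not analysed here. The study sequenced RNA from whole aortic arches of adult C57/BL6 mice that all lacked apolipoprotein E (ApoE-/-), which makes mice prone to atherosclerosis, and all carried floxed Rbpj alleles (RBPJflox/flox). Rbpj encodes the transcription factor through which Notch receptors act on DNA. In the 3 knockout libraries (S595, S598 and S599) the mice had in addition Cdh5-CreERT, in which the promoter of the endothelial gene Cdh5 drives a recombinase switched on by tamoxifen, and the 3 control libraries (S591, S592 and S594) came from mice without it. Tamoxifen was given to both groups at 8 weeks of age, over 1 week, and a high-fat diet was then fed during 6 weeks. The recombinase acts in endothelial cells, which are a minority of the wall, and it was absent from the controls, so its presence and the deletion cannot be told apart. Whole-arch RNA also cannot separate fewer cells of a type from less RNA per cell.

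Proteins are cut into peptides by the proteasome, in which interferon exchanges the constitutive catalytic subunits Psmb5, Psmb6 and Psmb7 for Psmb8, Psmb9 and Psmb10. The transporter made of Tap1 and Tap2 carries the peptides into the endoplasmic reticulum, where tapasin (Tapbp) helps to load them onto a heavy chain (H2-K1 or H2-D1) paired with beta-2-microglobulin (B2m). Nlrc5 is the transactivator that acts at class I promoters through DNA-binding partners of the RFX, CREB/ATF and NF-Y families. Leukocytes are rich in all of these transcripts, while most other cells of the wall carry them at lower levels that interferon raises.

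The promoters of the heavy and light chains are shown because factors of the CREB/ATF, NF-Y, NF-kappaB and interferon regulatory families are known to act there. Each is the 250 bases before the RefSeq transcript start (build GRCm38.p6), 5′ to 3′ on the coding strand. H2-K1 is at chr17:34000348-34000597, minus strand, H2-D1 at chr17:35262844-35263093, plus strand, and B2m at chr2:122147437-122147686, plus strand. Capitals mark every match on either strand to TGACG (CREB/ATF half-site), CCAAT or its reverse complement ATTGG (NF-Y box), to GGG and CC with any 5 bases between (kappaB-like) and to GAAA and GAAA with any 2 bases between (like the interferon-stimulated response element, ISRE).

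H2-K1: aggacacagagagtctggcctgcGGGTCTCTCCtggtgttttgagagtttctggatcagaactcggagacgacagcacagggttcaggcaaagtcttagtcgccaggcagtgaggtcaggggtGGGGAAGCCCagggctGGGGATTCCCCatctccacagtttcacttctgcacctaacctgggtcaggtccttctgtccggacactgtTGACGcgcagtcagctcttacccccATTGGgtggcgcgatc

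H2-D1: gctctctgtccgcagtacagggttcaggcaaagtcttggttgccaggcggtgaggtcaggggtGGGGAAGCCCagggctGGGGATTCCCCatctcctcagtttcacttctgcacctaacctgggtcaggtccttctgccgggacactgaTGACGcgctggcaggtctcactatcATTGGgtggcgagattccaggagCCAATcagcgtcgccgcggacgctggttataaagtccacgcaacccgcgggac

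B2m: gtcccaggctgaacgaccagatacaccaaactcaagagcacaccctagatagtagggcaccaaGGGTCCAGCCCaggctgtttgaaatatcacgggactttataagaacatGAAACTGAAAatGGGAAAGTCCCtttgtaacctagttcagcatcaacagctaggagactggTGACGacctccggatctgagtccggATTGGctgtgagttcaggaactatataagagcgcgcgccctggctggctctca

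In all 3 promoters TGACG was followed by ATTGG after 20 intervening bases, an arrangement found in 30 of 32851 RefSeq promoter windows of this length (0.0913%, either strand) and looked for after these sequences had been read. Of the 26 genes that own those windows, 4 were B2m or carried an H2 symbol (H2-K1, H2-D1, H2-M3 and B2m). The H2-K1 and H2-D1 promoters also had the same kappaB-like letters at the same distance upstream of that pair. B2m alone of the 8 genes with a window held a match to the ISRE-like letters, which occurred in 2.98% of all windows. Only that spelling was searched, so a window without it may still hold another form of an interferon response element. Tap1 and Psmb9 are divergent neighbours whose windows overlap, and the Tap1 window at chr17:34187306-34187555, plus strand, is shown with TGACG and CCAAT in capitals.

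Tap1: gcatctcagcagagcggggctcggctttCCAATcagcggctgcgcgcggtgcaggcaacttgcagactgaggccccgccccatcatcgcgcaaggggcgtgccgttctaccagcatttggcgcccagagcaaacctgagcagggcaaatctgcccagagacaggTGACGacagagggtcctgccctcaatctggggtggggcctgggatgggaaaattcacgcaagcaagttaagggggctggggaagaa

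Across the 8 genes with a window, 5 held TGACG (17.8% of all windows), 6 held a CCAAT box (33.8%) and 5 a kappaB-like match (45.8%). The core letters TGGGAA of the RBPJ motif, on either strand, were in 6 of the 8 (B2m, Tap1, Tapbp, Psmb8, Psmb9 and Psmb10) and in 21.6% of all windows. In B2m these letters overlap a kappaB-like match. In each of these counts, the matches of Tap1 and Psmb9 lie on the same bases of their overlapping windows, so shared sites are counted under both genes. A match of letters is a description of the window and shows no binding. Tap2 and Nlrc5 had no entry among these windows.

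The libraries held between 5904504 and 10072495 reads over all genes of the table. Rbpj read 169, 197 and 212 normalised CPM in knockout S595, S598 and S599, against 174, 191 and 200 in control S591, S592 and S594, so the whole-arch level of the targeted gene overlapped between the groups (log2 fold change 0.03, limma adjusted p = 0.923). Values below are normalised CPM, that is reads relative to a scaled library size. Each log2 fold change is the knockout mean minus the control mean of log2(value + 1), which understates changes of low genes, and come from limma with Benjamini-Hochberg adjustment over all 14298 genes. Smooth muscle markers were at high levels in every library, as for arterial wall, with Acta2 from 5021 to 12360 normalised CPM. The labels do not say whether each library came from a separate animal or from pooled animals, so p-values measure the spread between these libraries, which may be technical. Knockout S598 and S599 stood apart in T cell and thymocyte markers: the 11 measured summed to 30.7, 221 and 97.9 in knockout S595, S598 and S599, against 33.7 to 44.5 in the controls. The whole knockout group stood apart in the airway markers Scgb1a1 and Bpifa1, both higher at a limma adjusted p of 0.05. The 4 measured markers of airway and other epithelium summed to 73.9 to 105 in the knockout and 14.1 to 15.8 in the control arches. Of these 4, Krt18 and Cdh1 overlapped between the groups, with Krt18 at 9.36 in knockout S595 against 13.4 in control S591.

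Transcripts of the class I pathway stood lower in the knockout arches, by a modest amount and without reaching the adjusted threshold. All 9 measured genes had negative log2 fold changes, from −0.79 to −0.18 with a median of −0.53, where the median over all genes was −0.02. At an adjusted p of 0.05, limma called 0 of the 9, and 0.0210% of all genes in either direction. Without adjustment, 7 of the 9 were lower at p under 0.05 and 0 higher, where 12.0% of all genes were lower and 8.04% higher. For 6 of the 9 (B2m, Tap1, Tapbp, Psmb8, Psmb10 and Nlrc5) every knockout value lay below every control value, as it did for 14.2% of all genes. Without knockout S598 and S599, the log2 fold changes of the 9 genes ran from −1.13 to −0.23 and 5 of the 9 were lower at an unadjusted p of 0.05, where 6.33% of all genes were in that fit.

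**Figure D1:**
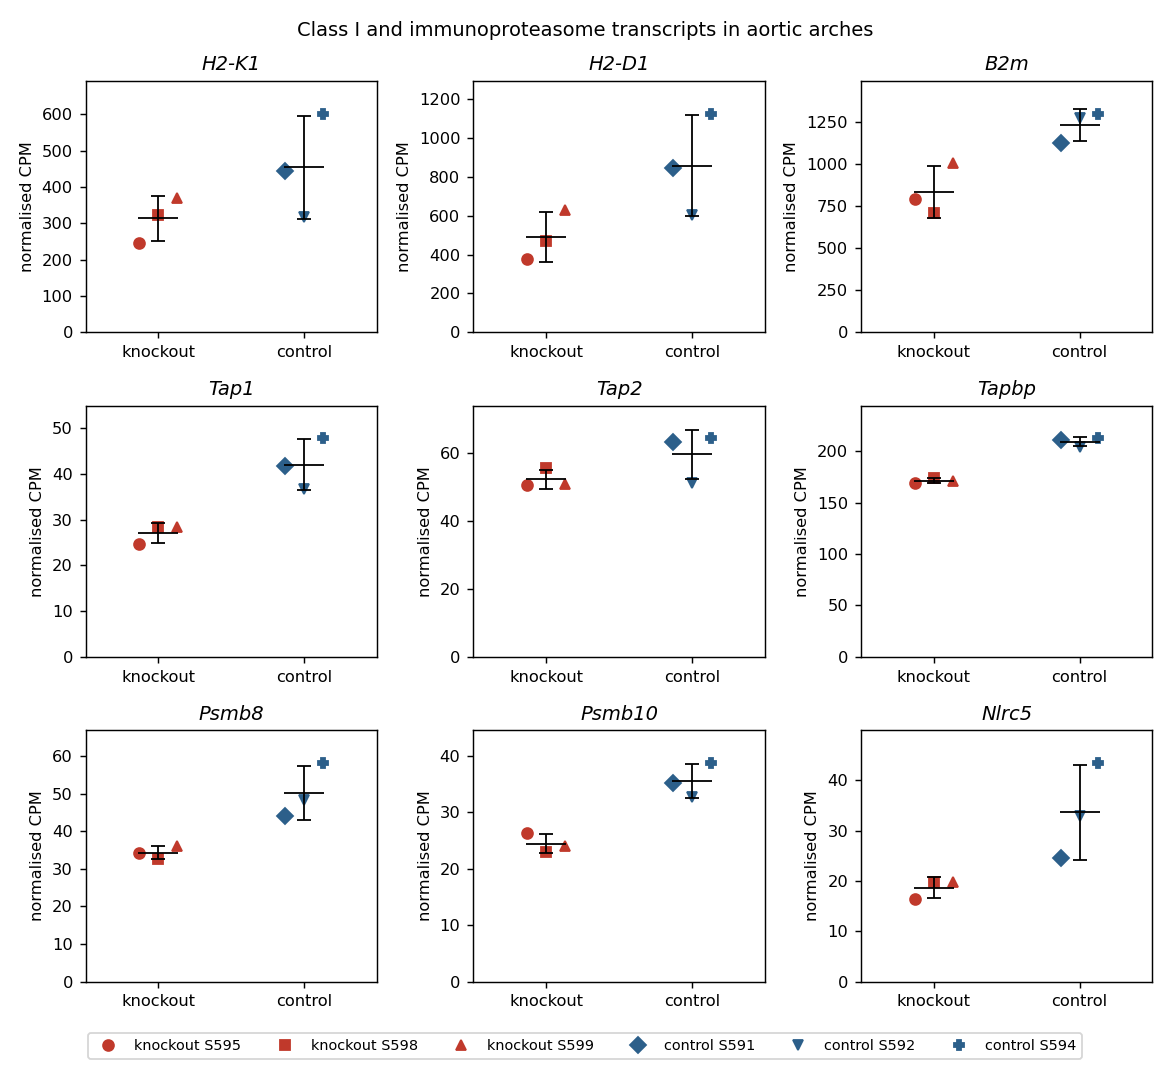
Normalised CPM of the 9 measured genes in each library, with 3 knockout libraries on the left and 3 control libraries on the right of each panel. Horizontal bars are means and error bars SD. The groups overlap for H2-K1, H2-D1 and Tap2 only, though for H2-D1 just by knockout S599 at 630 against control S592 at 604.

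Of the chains that form the class I molecule, the light chain had groups that did not overlap, while both heavy chains overlapped. B2m (ENSMUSG00000060802), the light chain shared by all classical class I molecules, read 792, 708 and 1006 in knockout S595, S598 and S599, against 1125, 1276 and 1299 in control S591, S592 and S594. The highest knockout library, S599, lay below the lowest control, S591. The means were 835 ± 154 in the knockout and 1233 ± 94.7 in the control arches (SD, n = 3 each), a log2 fold change of −0.57 with a standard error of 0.17 (limma adjusted p = 0.144).

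H2-D1 (ENSMUSG00000073411), a classical heavy chain, read 378, 468 and 630 in knockout S595, S598 and S599, against 845, 604 and 1126 in the controls S591, S592 and S594. Control S592 was low and knockout S599 high, so that the groups met between them. The log2 fold change was −0.79 ± 0.27 (standard error), with limma adjusted p = 0.168. H2-K1 (ENSMUSG00000061232), the other classical heavy chain measured, read 247, 323 and 370 in knockout S595, S598 and S599, against 445, 318 and 602 in control S591, S592 and S594. Here control S592 lay below knockout S598 and S599, and the log2 fold change of −0.51 had a 95% interval from −1.08 to 0.07 (limma adjusted p = 0.301). It was −0.28 without control S594 and −0.74 without control S592.

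The heavy chains were also set against each other. The ratio of H2-D1 to H2-K1 within a library was 1.53, 1.45 and 1.70 in knockout S595, S598 and S599, against 1.90, 1.90 and 1.87 in control S591, S592 and S594. The ratios did not overlap between the groups but the test could not pass the threshold (log2 difference −0.28, two-sided exact permutation p = 0.1, which is the lowest possible with 3 libraries against 3, and 0.133 adjusted over 4 ratios). This ratio was chosen after its values were seen. Reads of class I heavy chains are uncertain because the genes are alike: of the 50-base words in the longest H2-D1 coding transcript of GENCODE M21, 14.3% also occur in transcripts of other genes, as do 8.79% of those of H2-K1, while B2m shares 0%.

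Of the peptide loading genes, Tap1 and Tapbp had groups that did not overlap, and Tap2 had groups that did. Tap1 (ENSMUSG00000037321), a transporter subunit, read 24.6, 28.3 and 28.4 in knockout S595, S598 and S599, against 41.7, 36.7 and 47.8 in control S591, S592 and S594. All knockout values were below all control values, and the log2 fold change was −0.61 ± 0.13 (standard error, limma adjusted p = 0.110). Tap2 (ENSMUSG00000024339), its partner in the transporter, read 50.4, 55.5 and 50.7 in knockout S595, S598 and S599, against 63.2, 51.2 and 64.2 in the controls S591, S592 and S594.

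For Tap2 the low control was again S592, which lay below knockout S598. The log2 fold change was −0.18 with a 95% interval from −0.45 to 0.09 (limma adjusted p = 0.437). The Tap1 to Tap2 ratio was 0.487, 0.510 and 0.560 in knockout S595, S598 and S599, against 0.660, 0.717 and 0.743 in control S591, S592 and S594. It was lower in every knockout library (log2 difference −0.45, exact two-sided permutation p = 0.1, 0.133 adjusted over 4 ratios), and it too was chosen after the values were seen.

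Tapbp (ENSMUSG00000024308), the loading chaperone tapasin, read 169, 174 and 171 in knockout S595, S598 and S599, against 211, 204 and 212 in control S591, S592 and S594. The means were 171 ± 2.41 in the knockout and 209 ± 4.29 in the control arches (SD, n = 3 each). The difference was small but larger than the spread within either group (log2 fold change −0.29 ± 0.08, standard error, limma adjusted p = 0.138).

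The immunoproteasome subunits measured were both lower in every knockout library. Psmb8 (ENSMUSG00000024338), the chymotrypsin-like catalytic subunit, read 34.2, 32.7 and 36.1 in knockout S595, S598 and S599, against 44.2, 48.5 and 58.2 in control S591, S592 and S594. Psmb10 (ENSMUSG00000031897), which takes the place of Psmb7, read 26.2, 22.995 and 23.99 in knockout S595, S598 and S599, against 35.3, 32.8 and 38.7 in the controls S591, S592 and S594. The log2 fold changes were −0.53 ± 0.13 for Psmb8 (standard error, limma adjusted p = 0.119) and −0.52 ± 0.12 for Psmb10 (adjusted p = 0.111).

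The constitutive subunits overlapped between the groups, though for Psmb5 and Psmb6 just by knockout S595. Its Psmb5 value was 57.9 against 57.5 in control S591, and its Psmb6 value 93.4 against 91.85 in control S594. Psmb5, the partner that Psmb8 replaces, averaged 49.99 ± 6.87 in the knockout and 62.6 ± 7.79 in the control arches (log2 fold change −0.32, limma adjusted p = 0.247). Psmb6, the partner of Psmb9, averaged 85.9 ± 6.77 in the knockout and 100.1 ± 7.24 in the control arches (−0.22, adjusted p = 0.288). Psmb7, the partner of Psmb10, averaged 92.6 ± 6.20 in the knockout and 99.1 ± 9.07 in the control arches (−0.10, adjusted p = 0.656). At an unadjusted p of 0.05, 1 of the 3 (Psmb5) was lower, where 12.0% of all genes were.

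Within libraries, the ratio of Psmb10 to Psmb7 was 0.264, 0.262 and 0.266 in knockout S595, S598 and S599, against 0.322, 0.349 and 0.413 in control S591, S592 and S594. The knockout libraries were nearly alike and all below the controls (log2 difference −0.45, exact two-sided permutation p = 0.1, 0.133 adjusted over 4 ratios). The ratio of Psmb8 to Psmb5 was 0.590, 0.704 and 0.793 in knockout S595, S598 and S599, against 0.768, 0.826 and 0.813 in the controls S591, S592 and S594. Knockout S599 overlapped the controls there (log2 difference −0.22, exact permutation p = 0.2, also adjusted), and the log2 difference was −0.10 without knockout S595. A ratio within a library does not depend on how that library was scaled.

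**Figure D2:**
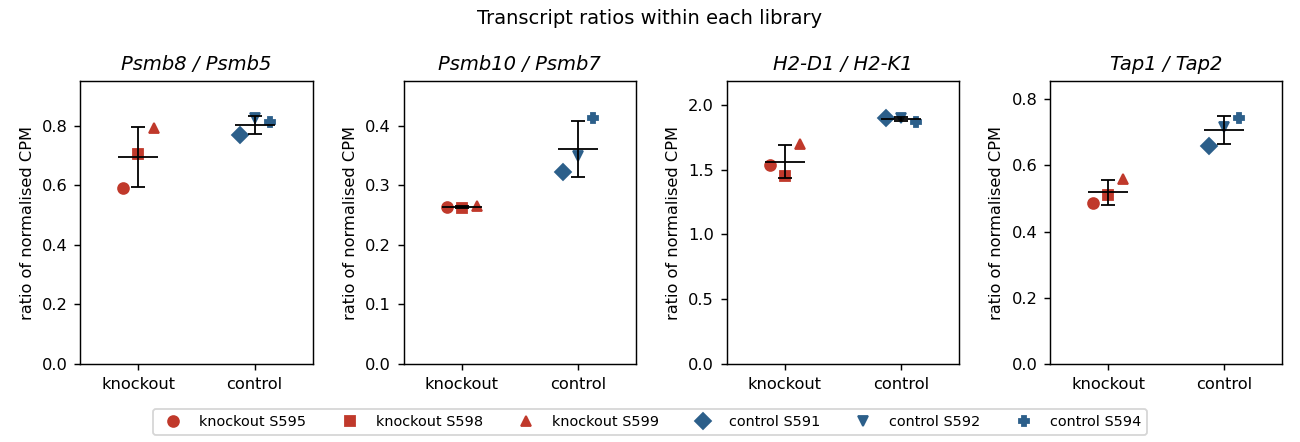
Ratios of normalised CPM within each library for Psmb8 to Psmb5, Psmb10 to Psmb7, H2-D1 to H2-K1 and Tap1 to Tap2. Knockout libraries are on the left and control libraries on the right, and bars give mean and SD. The groups are apart in all panels but that of Psmb8 to Psmb5, where knockout S599 (0.793) is above control S591 (0.768).

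Nlrc5 (ENSMUSG00000074151), the class I transactivator, read 16.4, 19.8 and 19.9 in knockout S595, S598 and S599, against 24.6, 32.9 and 43.4 in control S591, S592 and S594. The knockout libraries lay close together and below all controls, while the controls spread widely. The means were 18.7 ± 2.02 in the knockout and 33.7 ± 9.42 in the control arches (SD, n = 3 each), a log2 fold change of −0.78 with a standard error of 0.21 (limma adjusted p = 0.122).

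Among 24 measured genes of a list of class I regulators, 7 were lower at an unadjusted p of 0.05 (12.0% of all genes) with 0 higher, and limma called 0 at an adjusted p of 0.05. The list median was −0.13. Stat2, a transcription factor that acts downstream of type I interferon, averaged 41.6 ± 3.15 in the knockout and 65.1 ± 10.3 in the control arches (log2 fold change −0.63, limma adjusted p = 0.108). All knockout values of Stat2 were below all control values.

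Irf7, an interferon regulatory factor that is itself interferon-induced, averaged 17.9 ± 3.82 in the knockout and 34.7 ± 12.2 in the control arches (log2 fold change −0.88, limma adjusted p = 0.143). Irf1, a direct activator of class I genes, averaged 39.3 ± 6.39 in the knockout and 48.5 ± 8.59 in the control arches with overlapping libraries (−0.29, adjusted p = 0.380). Ciita, the class II counterpart of Nlrc5, averaged 14.5 ± 3.07 in the knockout and 24.6 ± 7.13 in the control arches (−0.70, adjusted p = 0.159). Rfx5, a DNA-binding partner of both transactivators, averaged 33.3 ± 7.69 in the knockout and 25.3 ± 4.65 in the control arches (0.37, adjusted p = 0.359). Its estimate was on the opposite side to that of Nlrc5, but its groups overlapped, with knockout S595 at 24.9 below control S591 at 28.9.

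Among the other class I and class I-like heavy chains, 2 of 14 were lower and 1 was higher at an unadjusted p of 0.05, shares near the 12.0% and 8.04% of all genes, with a median log2 fold change of −0.26. H2-T23, which encodes the nonclassical molecule Qa-1, averaged 85.0 ± 17.7 in the knockout and 128 ± 15.9 in the control arches (log2 fold change −0.60, limma adjusted p = 0.127). H2-Q4, a nonclassical heavy chain, averaged 62.2 ± 1.41 in the knockout and 80.8 ± 10.2 in the control arches (−0.37, adjusted p = 0.144). H2-T10 was the higher gene, at 7.71 ± 2.10 in the knockout and 4.90 ± 0.32 in the control arches (0.54, adjusted p = 0.219), and the likeness of these genes makes their reads uncertain.

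Of 10 other genes of peptide loading and trimming, 3 were lower at an unadjusted p of 0.05 (12.0% of all genes) with 0 higher, and the list had a median of −0.24. Calr, the chaperone calreticulin of the loading complex, averaged 587 ± 92.8 in the knockout and 760 ± 42.1 in the control arches (log2 fold change −0.38, limma adjusted p = 0.210). Canx, the chaperone of newly made heavy chains, averaged 323 ± 27.2 in the knockout and 390 ± 27.3 in the control arches (−0.27, adjusted p = 0.238). Sec61a1, a subunit of the translocation channel, averaged 162 ± 23.7 in the knockout and 207 ± 18.1 in the control arches (−0.36, adjusted p = 0.186). The trimming peptidase gene Erap1 had a log2 fold change of 0.08 (adjusted p = 0.749) and was named after its value was seen.

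Proteasome activator and assembly genes had 1 of 9 lower at an unadjusted p of 0.05, near the 12.0% of all genes, with 0 higher and a median of −0.14. Psme2, a subunit of the interferon-induced activator PA28, averaged 80.4 ± 1.46 in the knockout and 96.3 ± 6.55 in the control arches (log2 fold change −0.26, limma adjusted p = 0.186). Its partner Psme1 averaged 79.8 ± 4.76 in the knockout and 90.7 ± 6.06 in the control arches (−0.18, adjusted p = 0.340), and the assembly factor Pomp 68.2 ± 2.17 in the knockout and 74.8 ± 0.89 in the control arches (−0.13, adjusted p = 0.427).

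**Figure D3:**
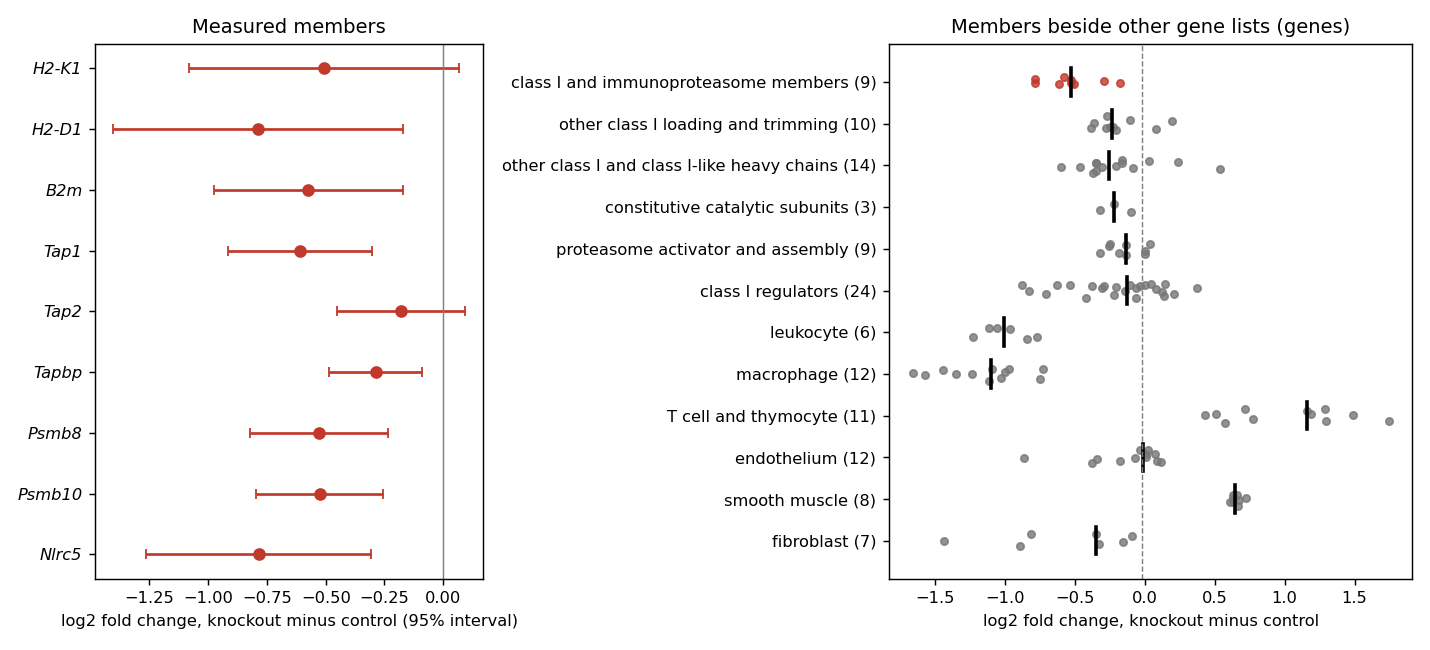
Left, log2 fold changes (knockout minus control) of the 9 measured genes with 95% intervals from limma. Right, log2 fold changes of single genes in each list, with the list median as a black bar and the median of all genes (−0.02) as a dashed line. The class I set has a median of −0.53, between the leukocyte markers (−1.01) and the endothelial markers (−0.01).

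By position, 6 of the 9 measured genes lie in the MHC on chromosome 17 (Tapbp, H2-K1, Tap1, Psmb8, Tap2 and H2-D1), B2m lies on chromosome 2, and Psmb10 and Nlrc5 lie on chromosome 8. In RefSeq's gene order for GRCm38.p6, Psmb9, Tap1, Psmb8 and Tap2 follow each other with no other protein-coding gene between them, and within that run Tap1 and Psmb8 were apart between the groups while Tap2 was not. Of 64 measured protein-coding genes that are not in the set but lie between Tapbp and H2-D1, 13 were lower and 1 was higher at an unadjusted p of 0.05 (20.3% lower, where 12.0% of all genes were), with a median log2 fold change of −0.15.

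The order among libraries was shared in part. Control S594 was the highest control for all 9 genes, as it was for 32.0% of all genes, while S592 was the lowest control for 6 of the 9 (29.4% of all genes) and S591 for 3 (35.3%). Among the knockouts, S599 was the highest for 6 of the 9 (35.7% of all genes) and S595 the lowest for 6 (35.3%), while S598 was the lowest for 3 (33.03% of all genes) and the highest for 2 (27.8%). The mean of the 9 genes, each standardised over the 6 libraries, was −1.02, −0.76 and −0.50 in knockout S595, S598 and S599, against 0.65, 0.29 and 1.34 in control S591, S592 and S594.

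The standardised mean of the leukocyte markers was highest in control S594 and in knockout S599 of their groups. It was lowest in knockout S598 and, among controls, in S591. Single markers could differ. Coro1a was 48.6 in knockout S598 against 47.6 in S599, and Cd53 was 211 in control S592 against 191 in S594. B2m and Psmb8 followed the order of the leukocyte mean in all 6 libraries and Nlrc5 in the 3 controls. The other class I genes followed it in neither group, and the share of all genes that followed it was not counted. The mean of the 9 class I genes was lowest in knockout S595 and, among controls, in S592. All 6 leukocyte markers were lower at an unadjusted p of 0.05, where 12.0% of all genes were. At an adjusted p of 0.05, limma called 0 of the leukocyte and 0 of the macrophage markers. Their median log2 fold change was −1.01, and they summed to 383 to 656 in the knockout and 744 to 1171 in the control arches. All 12 macrophage markers were also lower at an unadjusted p of 0.05, with a median of −1.10. Their sums were 2523 to 5852 in the knockout and 5874 to 9742 in the control arches. Ptprc, the pan-leukocyte CD45 gene, averaged 85.5 ± 23.8 in the knockout and 154 ± 41.7 in the control arches (log2 fold change −0.84, limma adjusted p = 0.146). None of these 18 markers had a library with 0 reads. The part of leukocyte content in the class I values was not tested.

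Markers of some other cell types shared or mirrored the leukocyte order of libraries. By standardised mean, fibroblast markers had the leukocyte order among the controls and were also lowest in knockout S598. Smooth muscle markers had the reverse of the leukocyte order within each group. T cell and thymocyte markers were highest in knockout S598, which was the lowest knockout for 3 class I genes and the highest for 2. The 12 endothelial markers had a median of −0.01 (sums of 993 to 1484 in the knockout and 1224 to 1291 in the control arches). At an unadjusted p of 0.05, 1 of the 12 was lower (12.0% of all genes) and 0 higher. The lower marker was Nos3, at 25.4 ± 5.66 in the knockout and 46.3 ± 1.22 in the control arches (log2 fold change −0.86, limma adjusted p = 0.107). The 8 smooth muscle markers had a median of 0.64 (sums of 22383 to 30732 in the knockout and 12748 to 22212 in the control arches). At an unadjusted p of 0.05, 4 of the 8 were higher (8.04% of all genes) and 0 lower. The 7 fibroblast markers had a median of −0.35 (sums of 6727 to 9052 in the knockout and 9659 to 16023 in the control arches). Of these 7, 3 were lower at an unadjusted p of 0.05 (12.0% of all genes) and 0 higher. Natural killer cell markers were not analysed here. The 5 adipocyte markers summed to 846 to 1283 in the knockout and 626 to 2593 in the control arches. The 3 measured B cell markers summed to 18.1 to 32.95 in the knockout and 32.6 to 44.0 in the control arches. Most of that sum was Cd22, which had a log2 fold change of −0.82. Cd79a and Cd79b had low values and log2 fold changes of 0.37 and 0.06. The part of these cell types in the class I values was not tested.

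**Figure D4:**
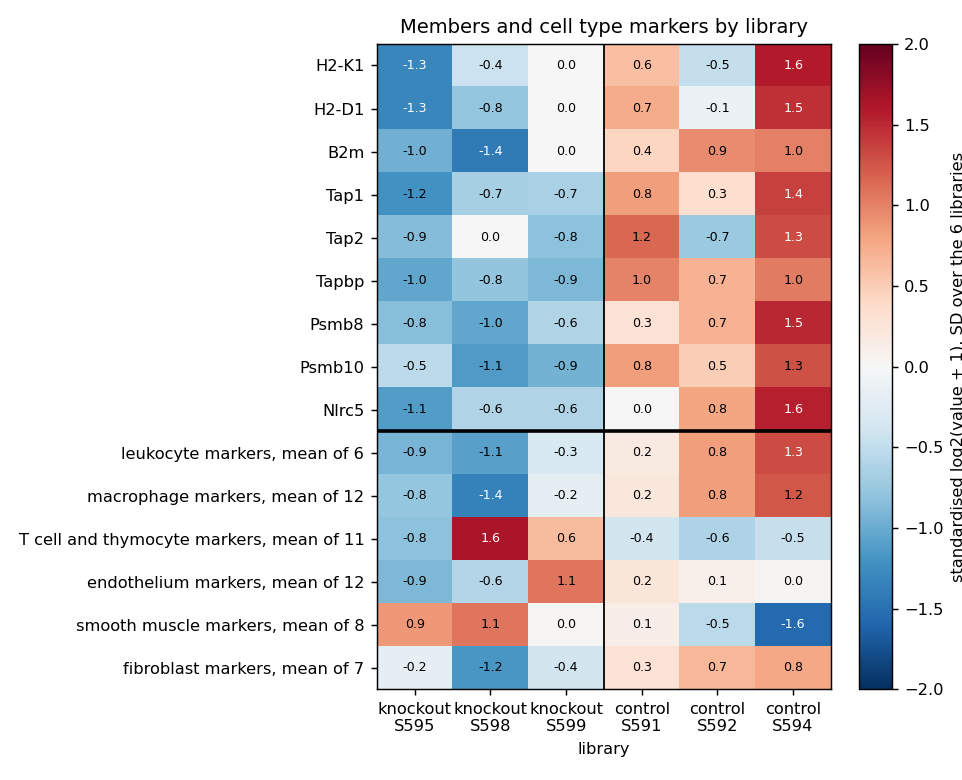
Standardised log2(value + 1) of the 9 measured genes and the mean of standardised marker genes for 6 cell types, in the 3 knockout libraries (left) and the 3 control libraries (right). Control S594 is the highest control for every class I gene and for the mean of the leukocyte and of the macrophage markers. T cell and thymocyte markers are high in knockout S598.

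The 5 genes outside the pathway lists whose values over the 6 libraries were most like that mean, among genes averaging at least 5 normalised CPM, were Met, Rrp36, Igtp, Rbm47 and Aph1a. The likeness is Pearson's correlation, from 0.989 to 0.996 over 6 libraries that differ in genotype, given as a description of the best matches among all genes. Met, the hepatocyte growth factor receptor gene, averaged 13.8 ± 1.22 in the knockout and 23.9 ± 4.01 in the control arches. Igtp, an interferon-inducible GTPase gene, averaged 23.01 ± 1.39 in the knockout and 31.0 ± 2.97 in the control arches. Aph1a, which encodes a gamma-secretase subunit, averaged 65.7 ± 3.98 in the knockout and 89.6 ± 12.5 in the control arches. Rbm47, an RNA-binding protein gene, averaged 8.37 ± 1.33 in the knockout and 18.6 ± 3.44 in the control arches, and Rrp36, a ribosomal RNA processing gene, 10.6 ± 0.49 in the knockout and 13.1 ± 0.90 in the control arches.

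Whether members passed the adjusted threshold depended on the test. DESeq2 on recovered reads called 6 of the 9 lower (H2-D1, B2m, Tap1, Psmb8, Psmb10 and Nlrc5), where it called 4.56% of the genes it tested lower. Limma with array weights called 4 (Tap1, Psmb8, Psmb10 and Nlrc5), where 5.06% of all genes were called lower. The edgeR quasi-likelihood test called 0 of the 9 and 0 of all genes at an adjusted p of 0.05, with 2899 genes at an unadjusted p of 0.05. Limma without control S591 called 2 (Psmb8 and Nlrc5), with 3.29% of all genes lower. The direction was lower for all 9 genes in all 18 alternatives, which draw on the same libraries and include a fit without a filter that repeats the main fit.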

How the data were processed

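Libraries of aortic arch RNA were made with a TruSeq kit, per the labels' protocols. Tools named without roles in the submitters' processing notes are Bowtie 0.12.7, RSEM, cutadapt, CASAVA, edgeR and limma, and the build named is NCBIM37. Annotation: not given in the sources used here, nor is strand. What the authors deposited is a signal per gene, normalised and not logged. Checked on the values, each equals reads plus 0.5, as CPM of a TMM-scaled library size, and 100% gave whole reads at a tolerance of 0.01. Columns were mapped to a group only, since their library numbers match no sample title.

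Symbols were matched by Ensembl identifier (13828 of 14298). Limma 3.58.1 in R 4.3.3 was fitted to log2(value + 1) with an intensity trend, 6 libraries and genotype as the factor. Genes needed a value of at least 1 in at least 3 libraries (0 removed), and p-values were two-sided with a threshold of 0.05. Alternatives were other pseudocounts, filters, scalings and variance models, each library left out, edgeR 4.0.16, DESeq2 1.42.0 and voom on the recovered reads. Leaving out both S598 and S599 was chosen after seeing the data. Ratios were compared by exact permutation in scipy 1.17.1, adjusted over 4 since the planned Psmb9 ratio was not analysed and 2 were added after seeing the data. The fit was tested on simulated data.

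The members and lists were chosen with earlier results of these data known. Named were all members, the 3 genes of each pathway list with the smallest p, Irf1, Rfx5, Ciita and the 5 best-matching genes, and from each marker list up to 3 with the highest mean. Erap1, Nos3, Cd79a and Cd79b were named after their values were seen. A regulator that this rule names is not reported here. Promoter sequences are RefSeq's on GRCm38.p6, another build than that of the processing notes. No molecular identifiers were used to count molecules as far as the sources say, so depth bounds counting error only.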

Additional observations from a re-analysis of the deposited data

How the results depend on the processing

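All 9 measured genes stayed lower in the knockout arches in all 18 alternatives, and the 4 ratios kept their direction in theirs. The alternative without a filter repeats the main fit, since the filter removed 0 genes, and all alternatives draw on the same 6 libraries. The count of members past the adjusted threshold, 0 in limma on all libraries, was 4 with array weights (5.06% of all genes lower), 6 by DESeq2, and between 0 and 2 with a library left out. Against 3 genes in all, limma called 0 with a pseudocount of 0.5 or 0.1, 0 with a mean of at least 5, 1 with no intensity trend and 1011 with array weights. In the fit without knockout S598 and S599 the lone knockout library is taken to vary as the controls do, so only its log2 fold changes are given. On recovered reads edgeR called 0, limma-voom 0 and DESeq2 900. With a library left out limma called between 0 and 671 genes, the highest without control S591. The count of members lower at an unadjusted p of 0.05, 7 of 9, ran from 6 to 9 with a library left out. Over all genes that count was 1710, against 1038 without knockout S598 and 1036 without control S594.

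The log2 fold change of H2-K1 ranged from −0.83 to −0.28 and that of Tap2 from −0.28 to −0.08. That of H2-D1 ranged from −1.13 to −0.57. Quantile normalisation and median centring moved the median of all genes to 0.03 and 0.05. With 3 libraries a group, the exact permutation test cannot give a p below 0.1. No paired analysis was possible because the columns carry no replicate number that matches the sample titles.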
